A study of Mus musculus with 15 samples.

Results

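Quadriceps muscle of aged mice that carry an error-prone mitochondrial ribosome was compared with the muscle of wild-type mice of the same age. RNA was sequenced from 4 mice of the genotype MRPS5 V338Y and 3 of the genotype MRPS5 WT, all C57BL/6 and 19 months old (19 mo), which are 7 of the 15 muscle samples of the series, chosen by their age and genotype labels. The other 8 samples are 4 V338Y and 4 wild-type mice at 3 months (3 mo), used here only where a value at 19 mo is set beside them. The mutant mice are homozygous for the germline exchange V338Y of valine for tyrosine in Mrps5, so that every tissue, blood and bone marrow included, carries it. The mice keep the numbers of their labels, with 2, 3, 4 and 5 in the V338Y group and 2, 4 and 5 in the wild-type group. A gene was tested if 50% or more of the mice of either genotype had 10 counts or more of it, which left 13833 of the 39179 genes in the files. Genes of lipid synthesis and of eicosanoids, of which 117 were listed, are left aside in what follows.

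Mitochondrial ribosomes translate the few proteins that the mitochondrial genome encodes, all of them parts of the respiratory chain and of ATP synthase, and MRPS5 is a protein of their small subunit, next to the site where codons are read. Skeletal muscle lives from the energy these complexes supply, and its RNA also holds that of the vessels, nerves, fat, connective tissue and immune cells between the fibers. Mrps5 lies on chromosome 2 (GRCm38, 127587222 to 127606829, plus strand). The codon that the mutation changes is in exon 11 of 12, in the coding sequence, at 127602459 to 127602461. Below is the reference sequence around it, chr2:127602429-127602491 on the plus strand, with the valine codon in capitals, to show the place of the exchange.

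Mrps5 valine codon: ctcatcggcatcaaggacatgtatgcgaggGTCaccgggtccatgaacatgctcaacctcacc

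Transcripts of Mrps5 itself stood at 20.1, 19.6, 16.6 and 19.6 CPM in V338Y mice 2, 3, 4 and 5 and at 20.6, 16.9 and 19.1 CPM in wild-type mice 2, 4 and 5. The groups overlapped, with a log2 fold change of 0.0059 ± 0.118 (SE, adjusted p = 0.996). CPM are counts scaled to the normalized library size and are not corrected for gene length, so that they compare mice and not genes. These counts do not show the codon, and Mrps5 therefore does not check the genotype labels.

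The counts of a mouse at 19 mo summed to 8250653 to 16411693, the lowest totals being those of V338Y mice 2 and 4. All 14 listed skeletal muscle transcripts passed the filter, and titin alone took 10.5 to 15.2% of the counts. Xist, transcribed from the inactive X chromosome of females, was at 541 to 699 CPM in the 7 mice at 19 mo and at 0 to 0.537 CPM in the 8 mice at 3 mo, whereas the Y-linked Ddx3y was at 152 to 189 CPM in the younger mice only. Age and sex can therefore not be told apart between the ages. The study describes the mice at 3 mo as female. V338Y mouse 5 stood apart from the other 6 mice at 19 mo on the first principal component (50.7, against -28.3 to 15.4), which held 37.1% of the variance, and V338Y mouse 2 on the second (40, against -20.2 to 8.32).

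At an adjusted p under 0.05 (edgeR quasi-likelihood test, Benjamini-Hochberg), 5 gene transcripts were up-regulated in V338Y mice at 19 mo, 0.0361% of those tested, and 1 was down-regulated, 0.00723%. All other differences are therefore given at a looser line and read against its count over all genes. At an unadjusted p under 0.05, 854 genes were higher (6.17%) and 381 lower (2.75%), and the genotypes did not overlap in 701 genes that were higher (5.07%) and 599 that were lower (4.33%) in V338Y mice. The median log2 fold change over all genes was 0.0080, and 51.6% of genes lay above 0. A fit with the mouse numbers as a replicate block called 110 genes at an adjusted p under 0.05, 97 higher (0.701%) and 13 lower (0.094%), among them the 6 called without it. In that fit V338Y mouse 3 has no wild-type partner and adds nothing to the contrast. At an unadjusted p under 0.05 it had 11.2% of genes higher and 7.5% lower. Without V338Y mouse 2 these shares were 4.5% and 1.61%, without mouse 3 8.59% and 4.08%, without mouse 4 5.79% and 3.09% and without mouse 5 6.37% and 2.48%, and counts given below for these settings are to be read against them. Labels do not say whether mice of a group shared a litter, or whether an equal number links a V338Y and a wild-type mouse. Values with the block are therefore those of an assumed pairing and stand beside the main fit as an alternative. The block was fitted because same-numbered mice correlated in these same data, and it leaves fewer residual degrees of freedom than the main fit. An adjusted p under 0.05 with the block alone is therefore not read as a difference of the genotypes.

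**Figure D1:**
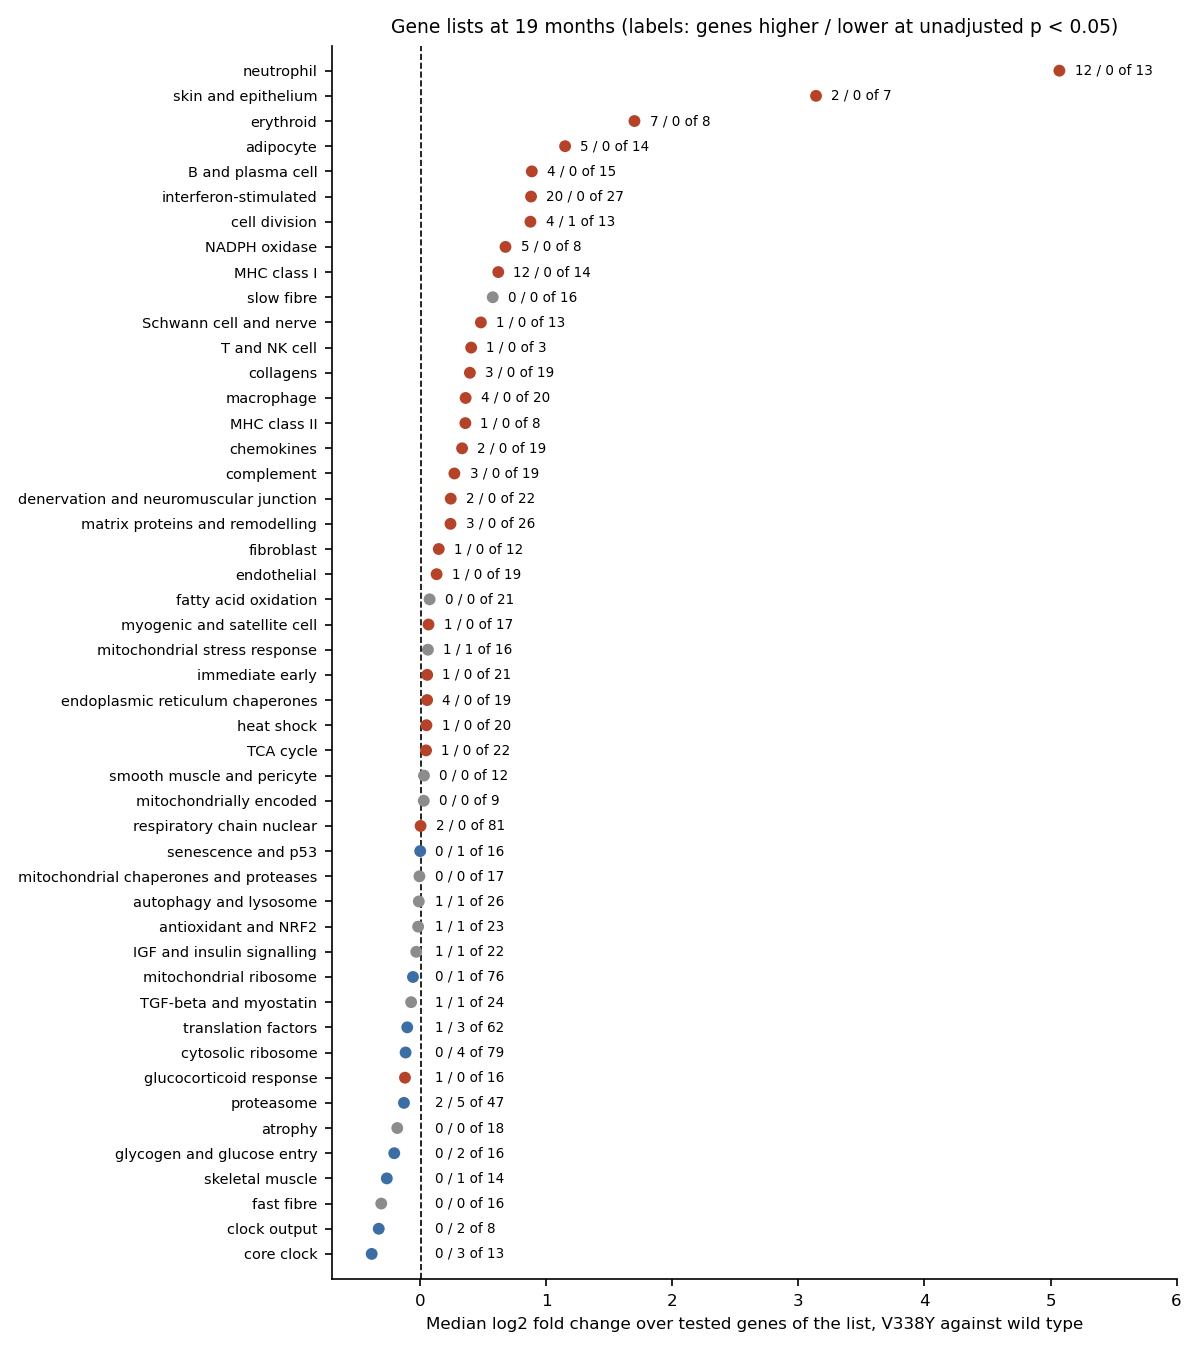
Median log2 fold change of 48 gene lists, V338Y against wild type at 19 mo (x axis). Red points are lists with more genes higher than lower at an unadjusted p under 0.05, blue points the reverse, grey points neither. The numbers are genes higher, genes lower and genes tested, and the dashed line is the median of all genes at 0.0080. Interferon-stimulated genes (20 of 27 higher) and MHC class I genes (12 of 14) stand to the right, and core clock genes (3 of 13 lower) at the left end.

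The 6 genes past the adjusted threshold were all genes with a near-identical copy elsewhere in the genome. Eif3j1 and Eif3j2 encode the same loosely bound subunit of translation initiation factor 3, and the transcripts match at 99.4% of 2379 bases. Eif3j2, an intronless copy, was at 19.9, 25, 23.9 and 22.8 CPM in V338Y mice and at 0.398, 0.318 and 0.354 CPM in wild-type mice, and it rose with a log2 fold change of 5.96 ± 0.18 (SE, adjusted p = 3.95e-06). Eif3j1 (chromosome 2, 122028546 to 122056598) was at 16.7, 23, 22.8 and 23.4 CPM in V338Y and at 70.3, 73.9 and 64.8 CPM in wild-type mice, and it was the single gene that fell (log2 fold change -1.69 ± 0.137, adjusted p = 0.00461). Neither gene's values overlapped between the genotypes. The sum of both copies was 44.4 ± 5.24 CPM in V338Y (SD, n = 4) and 70 ± 4.56 CPM in wild-type mice (SD, n = 3), without overlap. An exact two-sided permutation test of that sum gave p = 0.0286, the smallest that 4 against 3 mice allow. In the separate mice at 3 mo the same 2 genes differed in the same directions, with log2 fold changes of 6.72 for Eif3j2 (adjusted p = 1.52e-07) and -1.24 for Eif3j1 (adjusted p = 0.00033).

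Rplp0, a protein of the stalk of the large cytosolic ribosomal subunit, has the processed pseudogenes Gm8730 (chromosome 8, 98.7% identity over 954 bases) and Gm9625 (chromosome 13, 97.4% over 955 bases). Gm8730 was at 22.4, 20.6, 23.5 and 42.6 CPM in V338Y mice and at 0.0663, 0.239 and 0 CPM in wild-type mice, the latter being 0 to 3 counts (adjusted p = 0.00207). Gm9625 was at 5.52 to 13.2 CPM in V338Y and at 0.133 to 0.318 CPM in wild-type mice (adjusted p = 0.0164). Rplp0 itself was at 220, 228, 237 and 152 CPM in V338Y mice and at 327, 343 and 343 CPM in wild-type mice, with an adjusted p of 0.483. V338Y mouse 5 had the most of both pseudogenes and the least of Rplp0. The sum of the 3 genes was 249, 254, 266 and 208 CPM in V338Y and 327, 344 and 343 CPM in wild-type mice, again without overlap (exact two-sided permutation p = 0.0286). At 3 mo the pattern did not follow the genotype: Gm8730 was at 19.3 CPM and Rplp0 at 217 CPM in wild-type mouse 2, while the other 7 mice had at most 0.107 CPM of Gm8730 and 308 to 345 CPM of Rplp0.

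The remaining called genes were Gm14085 and Gm11847. Gm14085 (chromosome 2, 122484941 to 122528040) matches its neighbor Slc28a2, a nucleoside transporter, at 95.9% of 3750 aligned bases. It was at 5.06, 3.44, 2.78 and 5.25 CPM in V338Y mice and was not counted in any wild-type mouse, which makes it at least 15.6-fold higher against a floor of 3 counts in a library (adjusted p = 0.0292). The sum of Slc28a2 and Gm14085 was 21.9 ± 4.87 CPM in V338Y (SD, n = 4) and 17.6 ± 3.07 CPM in wild-type mice (SD, n = 3), and the groups overlapped (exact two-sided permutation p = 0.257). Gm11847, a processed pseudogene with 98.1% identity to the RNA-binding protein gene Hnrnpa3 on chromosome 2, was at 6.16, 5.95, 5.11 and 2.45 CPM against 0.133, 0.159 and 0 CPM (adjusted p = 0.0295). With Hnrnpa3 added, V338Y mice stood at 45.1 ± 4.37 CPM (SD, n = 4) and wild-type mice at 48.4 ± 6.19 CPM (SD, n = 3), which overlap (exact two-sided permutation p = 0.429). The authors' counting divides a read that fits several genes between them, so the level of each copy alone is uncertain and the sums are the firmer values. Leaving out a mouse at a time, Eif3j2 and Gm8730 passed the adjusted threshold each time, and Eif3j1 did except without wild-type mouse 4 (adjusted p = 0.063). Gm14085 and Gm11847 passed it only without V338Y mouse 5, and otherwise had adjusted p of 0.0619 to 0.111 and of 0.0857 to 0.223. Gm9625 lost it without V338Y mouse 2 or any 1 of the wild-type mice (0.0773 to 0.121). In the separate mice at 3 mo Gm14085 was at 1.99 to 2.6 CPM in V338Y and at most 0.0846 CPM in wild-type mice. Its log2 fold change there was 6.35 (adjusted p = 0.00051). Gm11847 was at 2.36 to 3.57 CPM against 0.0853 to 1.61 CPM at 3 mo (log2 fold change 2.06, adjusted p = 0.285).

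**Figure D2:**
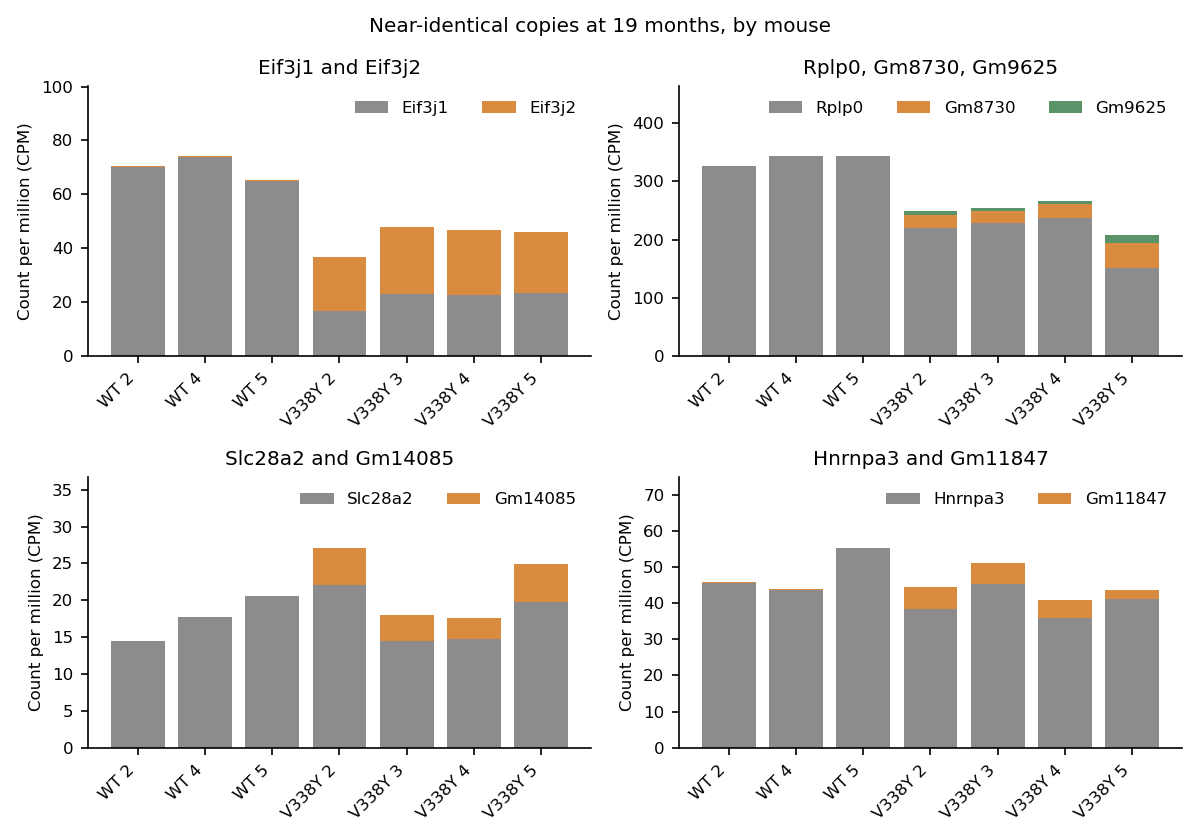
Level in CPM (y axis) of 4 sets of near-identical genes in the 3 wild-type and 4 V338Y mice at 19 mo, stacked by gene. The stacks of Eif3j1 with Eif3j2 and of Rplp0 with its pseudogenes are lower in every V338Y mouse, while those of Slc28a2 with Gm14085 and of Hnrnpa3 with Gm11847 overlap.

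Within 6 Mb of Mrps5, 112 other genes were tested, of which 16 were higher and 5 lower at an unadjusted p under 0.05, and the median log2 fold change was -0.01. On the whole of chromosome 2, 80 of 1098 tested genes were higher and 46 lower at that line. Over all genes 6.17% were higher and 2.75% lower. Besides Eif3j1 and Gm14085, those with the smallest p were Bloc1s6, Adra1d, Duoxa1 and Eid1, all higher. Bloc1s6, a part of a complex that builds lysosome-related organelles, was at 17.6 to 23.8 CPM in V338Y and 9.02 to 14.1 CPM in wild-type mice (log2 fold change 0.78 ± 0.18 SE, adjusted p = 0.467, and 0.0496 with the replicate block), and at 3 mo its log2 fold change was 0.77 (adjusted p = 0.0284). Eid1, an inhibitor of histone acetylation, was at 20.5 to 27.8 CPM against 16.1 to 18.1 CPM (log2 fold change 0.53 ± 0.14 SE, adjusted p = 0.505).

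On the upper side, 15 genes outside lipid synthesis were named by the smallest p among those without overlap, and of them only Eif3j2 passed the adjusted threshold. The smallest p after it was that of the immunoglobulin segment Igkv1-110, at 1.67 to 3.08 CPM in V338Y and 0 to 0.177 CPM in wild-type mice (adjusted p = 0.0924). Slc25a10, the carrier that exchanges dicarboxylates across the inner mitochondrial membrane, was at 18.8, 9.75, 17.8 and 10.6 CPM in V338Y mice and at 4.05, 4.45 and 3.71 CPM in wild-type mice (log2 fold change 1.79 ± 0.27 SE, adjusted p = 0.165). Each V338Y mouse was above every wild-type mouse, and mice 2 and 4 had the most. Pygl, the liver form of glycogen phosphorylase, was at 24.3, 11.7, 17.3 and 24.9 CPM against 6.83, 6.12 and 5.75 CPM (log2 fold change 1.64 ± 0.27 SE, adjusted p = 0.208). Pcx, pyruvate carboxylase of the mitochondrial matrix, was at 209, 146, 160 and 126 CPM against 81.3, 71.7 and 83.1 CPM (log2 fold change 1.03 ± 0.18 SE, adjusted p = 0.270). These 3 genes and Rbp4, the retinol carrier of plasma (6.24 to 16.3 CPM against 2.99 to 3.42 CPM), were among the genes called with the replicate block, at adjusted p of 0.00653, 0.00408, 0.0475 and 0.0268. At 3 mo Slc25a10, Pygl, Pcx and Rbp4 had log2 fold changes of -0.55, -0.81, -0.11 and -0.90, and adipocyte transcripts, described further on, averaged highest at 19 mo in V338Y mice 2 and 4, where Slc25a10 and Rbp4 were highest too, and their part in these values was not tested.

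Itgam, the integrin chain CD11b of myeloid cells, was at 25.5, 19.6, 19.1 and 23.8 CPM in V338Y and at 8.49, 10.9 and 12.7 CPM in wild-type mice (log2 fold change 1.04 ± 0.17 SE, adjusted p = 0.229, and 0.0429 with the replicate block). Uba7, the enzyme that activates the ubiquitin-like modifier ISG15, was at 13.6 to 21.1 CPM against 8.19 to 9.19 CPM (log2 fold change 0.98 ± 0.17 SE, adjusted p = 0.273, and 0.0268 with the replicate block). Stat5a, a transcription factor of cytokine and growth hormone signalling, was at 18.9 to 24.5 CPM against 12.3 to 14.3 CPM, and Naip2, a sensor of bacterial proteins, at 3.94 to 5.04 CPM against 2.12 to 2.39 CPM (adjusted p = 0.383 and 0.395). Tuba1b, an alpha-tubulin, was at 11.3 to 15.4 CPM against 7.96 to 8.51 CPM (adjusted p = 0.302). Orm1, an acute phase protein of plasma, Kcnj15, a potassium channel, Tspan32, a tetraspanin of blood cells, and Mrap, a partner of melanocortin receptors, complete the 15. With Igkv1-110 they were all at low levels, of 1 to 6.27 CPM in V338Y and 0 to 1.86 CPM in wild-type mice, and Orm1, Kcnj15 and Igkv1-110 were called with the replicate block (adjusted p = 0.0219, 0.0268 and 0.0254). Of these 15 genes Igkv1-110, Kcnj15 and Tspan32 were not tested at 3 mo. Of the others 5 had the same direction at 3 mo, 1 of them, Eif3j2, at an unadjusted p under 0.05.

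Interferon-stimulated genes had the most members on one side at an unadjusted p under 0.05 of the 48 lists. Cells that sense foreign or misplaced nucleic acids release interferons, whose receptors act through transcription factors on a promoter element, the interferon-stimulated response element (ISRE), to turn on these antiviral genes. All 27 listed genes were tested and had a log2 fold change above 0, with a median of 0.88. Of them 20 were higher at an unadjusted p under 0.05 and none lower, against 6.17% and 2.75% of all genes, and in 11 the genotypes did not overlap, against 5.07%. None of the 27 passed the adjusted threshold, with or without the replicate block, although with the block 22 were higher at an unadjusted p under 0.05, against 11.2% of all genes. Averaged over the list, log2(CPM + 0.5) was 3.57, 2.90, 2.44 and 2.98 in V338Y mice 2, 3, 4 and 5 and 2.25, 2.23 and 2.32 in the wild-type mice. All V338Y mice were thus above the wild-type mice, mouse 2 the most and mouse 4 by the least. Without V338Y mouse 2 the median was 0.71 and 11 genes were higher, against 4.5% of all genes, and without mouse 3, 4 or 5 17 to 24 were. At 3 mo 1 of 26 tested genes was higher and none lower at an unadjusted p under 0.05, where 5.03% of all genes were higher and 4.67% lower, and the median was 0.10.

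Promoters of 2 of the genes are shown with the core of the ISRE (GAAA, any 2 bases, GAAA, on either strand) in capitals. They are RefSeq sequences of GRCm38.p6 that run from 250 bases before to 50 bases after the start of the gene, Isg15 at chr4:156200769-156201068 on the minus strand and Gbp3 at chr3:142559794-142560093 on the plus strand.

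Isg15 promoter: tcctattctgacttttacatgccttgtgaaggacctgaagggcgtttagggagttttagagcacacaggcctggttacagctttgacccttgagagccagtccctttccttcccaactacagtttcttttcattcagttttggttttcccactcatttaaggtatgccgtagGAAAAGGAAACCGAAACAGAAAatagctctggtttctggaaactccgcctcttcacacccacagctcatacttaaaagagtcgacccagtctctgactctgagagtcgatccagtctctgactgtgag

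Gbp3 promoter: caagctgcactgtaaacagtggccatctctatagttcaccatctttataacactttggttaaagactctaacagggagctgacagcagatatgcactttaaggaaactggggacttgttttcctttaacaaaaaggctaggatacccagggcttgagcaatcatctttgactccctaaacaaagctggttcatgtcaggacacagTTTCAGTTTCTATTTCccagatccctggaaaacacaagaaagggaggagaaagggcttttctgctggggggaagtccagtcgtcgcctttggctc

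The Isg15 window holds 3 overlapping matches and that of Gbp3 2. Of the 19 interferon-stimulated genes with a promoter in the table, 12 had at least 1 match (63.2%), against 1079 of 27025 genes (3.99%). A match describes these letters and is not a measured binding site. Isg15, a ubiquitin-like modifier, was at 2.31, 1.65, 0.667 and 2.38 CPM in V338Y and at 0.199, 0.239 and 0.707 CPM in wild-type mice (log2 fold change 2.24 ± 0.58 SE, adjusted p = 0.505). The groups overlapped, V338Y mouse 4 being below wild-type mouse 5. Gbp3, a GTPase that attacks the vacuoles of intracellular pathogens, was at 12.8, 7.74, 7.56 and 11.4 CPM against 5.04, 4.69 and 4.6 CPM (log2 fold change 1.04 ± 0.22 SE, adjusted p = 0.418), and at 3 mo its log2 fold change was 0.71 (unadjusted p = 0.0035). Irf7, the transcription factor that amplifies interferon production, was at 10.1, 6.38, 4.11 and 10.4 CPM against 2.06, 3.18 and 3.27 CPM (log2 fold change 1.46 ± 0.35 SE, adjusted p = 0.483). Ddx58, the RNA sensor RIG-I, was at 15.5, 11.9, 11.7 and 12.7 CPM against 7.96, 9.38 and 9.64 CPM (log2 fold change 0.52 ± 0.14 SE, adjusted p = 0.511). In Gbp3, Irf7 and Ddx58 every V338Y mouse was above every wild-type mouse.

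Transcripts of antigen presentation through MHC class I lay on the same side. All 14 listed genes were above 0, with a median log2 fold change of 0.62, and 12 were higher at an unadjusted p under 0.05, while the genotypes did not overlap in 4. Nlrc5, the transcriptional activator of class I genes, was at 17.8, 7.81, 11.3 and 13.5 CPM in V338Y and at 4.51, 5.09 and 8.13 CPM in wild-type mice (log2 fold change 1.10 ± 0.31 SE, adjusted p = 0.511). H2-K1, a class I heavy chain, was at 109, 67.6, 102 and 92.5 CPM against 58.5, 65.1 and 65.1 CPM, and Tap1, a subunit of the peptide transporter of the endoplasmic reticulum, at 14.7, 5.66, 8 and 10.4 CPM against 4.18, 5.33 and 5.22 CPM (adjusted p = 0.525 for both). V338Y mouse 3 was close to the wild-type mice in these genes and mouse 2 the farthest from them. Without mouse 2 5 of the 14 were higher at an unadjusted p under 0.05, without mouse 4 or 5 8 were, and without mouse 3 or with the replicate block all 14 were. The H2 genes share long stretches of sequence, so that reads may be divided between them. Of 8 MHC class II genes 1 was higher, Ciita, the activator of that class, and the list median was 0.36. Without mouse 5 5 of the 8 were higher (median 0.53), and without mouse 2 or mouse 4 none was (0.25 and 0.23). Class II genes averaged 4.66 and 4.62 in V338Y mice 2 and 4 and 3.81 and 3.63 in mice 3 and 5 on the log2 scale, around the 3.73 to 4.0 of the wild-type mice.

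**Figure D3:**
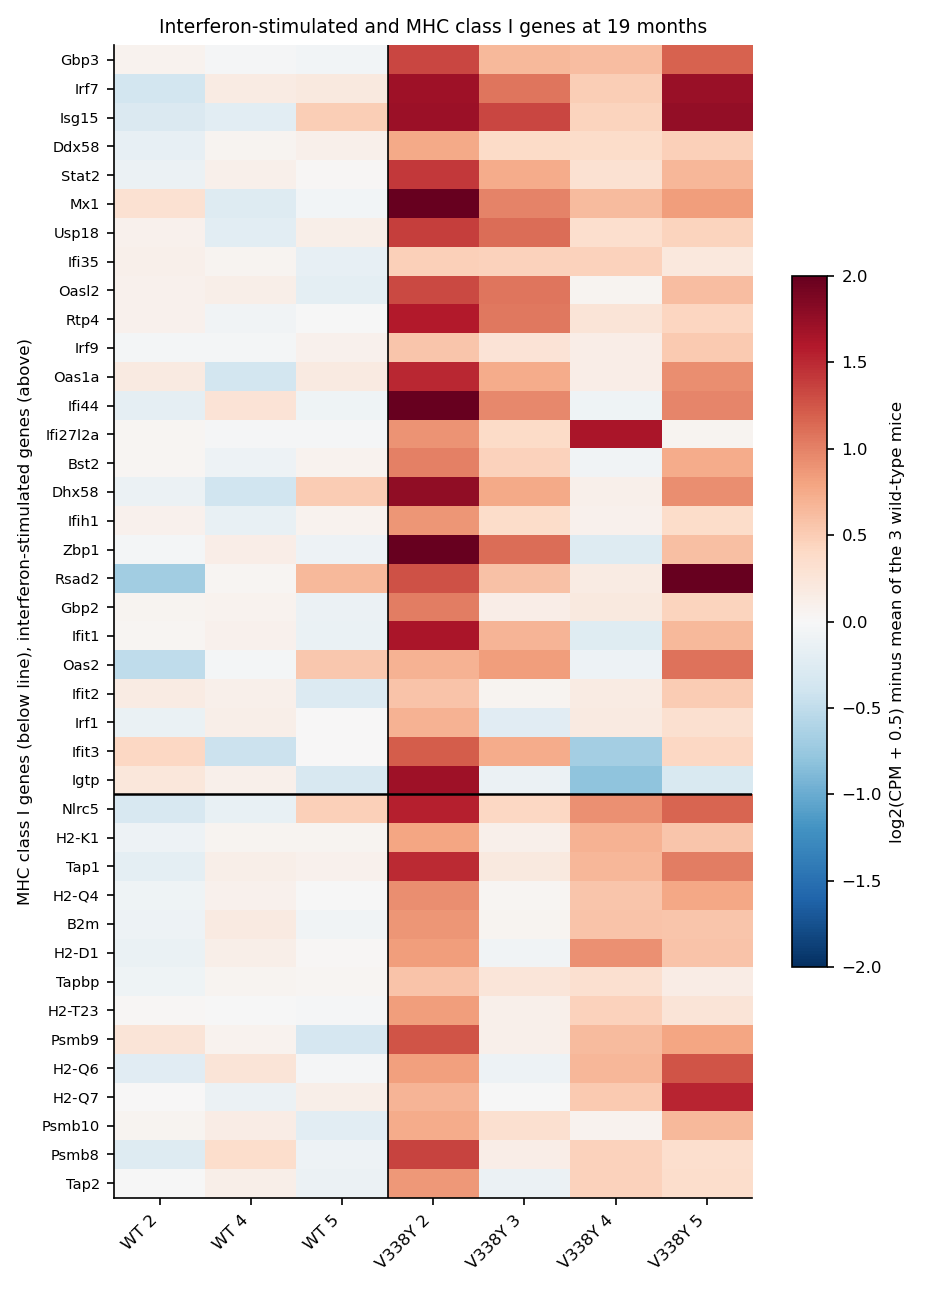
Level of 26 of the 27 interferon-stimulated genes (above the line) and 14 MHC class I genes (below it) in each mouse at 19 mo, as log2(CPM + 0.5) minus the mean of the 3 wild-type mice. Colors end at -2 and 2. V338Y mouse 2 is the reddest column in most genes and V338Y mouse 4 the palest in the interferon-stimulated genes.

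Among immune cell transcripts, those of the phagocyte NADPH oxidase, which makes superoxide, were higher in 5 of 8 genes, and in 4 the genotypes did not overlap. Cyba, the membrane subunit p22phox, was at 7.92, 6.67, 7 and 8.68 CPM in V338Y and at 4.64, 4.69 and 5.22 CPM in wild-type mice (log2 fold change 0.64 ± 0.16 SE, adjusted p = 0.483). Ncf4, a cytosolic subunit, was at 3.19, 1.94, 1.67 and 5.67 CPM against 0.929, 1.27 and 0.707 CPM (adjusted p = 0.520). Rac2 and Ncf1 were also higher without overlap, most of all in V338Y mouse 5 (14.8 and 17.9 CPM, against at most 4.89 and 6.38 CPM in the other V338Y mice). Nox4, the form made by muscle and vessel cells, had a log2 fold change of -0.03. Without mouse 5 the list still had 4 of 8 genes higher, with a median of 0.53 against 0.68.

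Macrophage transcripts had a median of 0.36 with 18 of 20 above 0, and 4 were higher at an unadjusted p under 0.05, Itgam, Siglec1, Lyz2 and Adgre1. Siglec1, a sialic acid receptor of tissue macrophages, was at 30.7, 25.1, 12.8 and 14.4 CPM in V338Y and at 11.6, 8.03 and 11.5 CPM in wild-type mice (log2 fold change 1.0 ± 0.32 SE, adjusted p = 0.525). Lyz2, the lysozyme of myeloid cells, was at 140 to 191 CPM against 108 to 132 CPM. In bulk tissue, more cells of a type and more RNA in each cell cannot be told apart. Without mouse 5 8 macrophage genes were higher, and without mouse 2 or mouse 4 3 of 19 tested (medians 0.24 and 0.29). Complement genes had 3 of 19 higher, Cfb and Cfp among them, and a median of 0.27, and without mouse 5 10 were higher and 1 lower, while without mouse 2 or mouse 4 none was higher (medians 0.16 and 0.21). Of 19 chemokine genes 2 were higher, Cxcl14 (20.8 to 36.6 CPM against 12.8 to 20.5 CPM) among them, with a median of 0.33, and 1 to 5 were when a V338Y mouse was left out. Cxcl14 had an adjusted p of 0.0496 with the replicate block and 0.504 without it. Of 18 listed T and NK cell genes 3 passed the filter, Cd2, Il7r and Nkg7, and the highest level of a T cell receptor complex gene, Cd3e, was 0.63 CPM, so that T cell transcripts were near the limit of detection.

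Transcripts of B and plasma cells were uneven between mice. Of 15 genes tested 4 were higher at an unadjusted p under 0.05, with a median of 0.89. Without mouse 5 the median was 0.35, with 3 of 12 tested genes higher and 1 lower, without mouse 4 0.48, with 1 of 11 higher, and without mouse 3 1.54, with 6 of 14 higher. The genes lost in these settings had passed the filter only through the V338Y mouse left out. No count or median over this list is therefore read as a difference of the genotypes. The B cell surface gene Ms4a1 was at 5.67 CPM in V338Y mouse 4 and at most 1.12 CPM in the other 6 mice. Among the wild-type mice, number 5 had the most immunoglobulin transcripts, with 43.4 CPM of Igkv14-126 against at most 2.56 CPM in any other mouse. Immunoglobulin segments are clonal, and an abundant one can come from few cells.

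Neutrophil, erythroid and cell division transcripts were highest in V338Y mouse 5. Summed over all 18 listed neutrophil genes, levels were 20.1, 49.5, 22.2 and 888 CPM in V338Y mice 2, 3, 4 and 5 and 13.4 to 14.2 CPM in wild-type mice. Mpo, the peroxidase of neutrophil granules and their precursors, was at 55.9 CPM in mouse 5 and at most 1.15 CPM in any other mouse, S100a8, a calcium-binding alarmin, at 178 against 6.95 CPM, and Ltf, lactoferrin, at 103 against 4.44 CPM. With the replicate block, which keeps mouse 5, Mpo, Ltf and Chil3 had adjusted p of 0.00408, 0.00862 and 0.0192, against 0.557, 0.525 and 0.537 without it. Of these genes 13 passed the filter with mouse 5 and 6 without it, so no count over them is read as a difference of the genotypes. Mouse 3 was also above the wild-type mice, and in the 6 genes that were tested without mouse 5 3 were higher, with a median of 1.11. Erythroid genes summed to 986 CPM in mouse 5, 526 CPM in mouse 2, 228 and 230 CPM in mice 3 and 4 and 171 to 221 CPM in wild-type mice, and 7 of 8 were higher, with a median of 1.70. Without mouse 5 4 of 7 were higher, with a median of 0.90. Hbb-bs, an adult beta-globin, was at 285, 106, 109 and 483 CPM against 58.4, 96.5 and 75.8 CPM. Mki67, the proliferation antigen Ki-67, was at 4.73, 6.52, 3.78 and 91.2 CPM against 2.26, 2.31 and 2.12 CPM, and Top2a, the topoisomerase of dividing cells, at 3.52, 2.37, 2.22 and 26 CPM against 0.863, 1.19 and 0.884 CPM. Both were above wild type in all 4 V338Y mice. Of 13 cell division genes tested 4 were higher and 1, Pcna, lower, with a median of 0.88, which was 0.19 without mouse 5 with 3 higher and 1 lower. Pcna also has a near-identical copy, Pcna-ps2, and the sum of both was 12.2 ± 1.99 CPM in V338Y (SD, n = 4) and 14.4 ± 0.903 CPM in wild-type mice (SD, n = 3), which overlap (exact two-sided permutation p = 0.171).

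Transcripts of skin and of fat were highest in V338Y mice 2 and 4. Summed over 10 listed skin and epithelium genes, levels were 35.5 and 41.2 CPM in V338Y mice 2 and 4, 2.51 and 6.44 CPM in mice 3 and 5 and 2.85 to 7.32 CPM in wild-type mice. Epcam, an adhesion protein of epithelia, was at 2.75 and 4 CPM in mice 2 and 4 and at most 0.35 CPM in the other 5, and Krt5, a keratin of basal epithelial cells, was counted in mice 2 and 4 only (adjusted p = 0.559, and 0.0496 with the replicate block), while the skin barrier genes Krt1 and Lor reached at most 0.11 and 0 CPM. Of the 7 tested 2 were higher at an unadjusted p under 0.05, with a median of 3.14, without mouse 3 and mouse 5 7 and 6 were, and without mouse 2 and mouse 4 3 genes passed the filter, of which 0 and 1 were higher. The other skin genes passed the filter only through mice 2 and 4, where they were high. No count or median over the list is therefore read as a difference of the genotypes. Adipocyte genes averaged 5.52, 4.29, 6.44 and 5.07 in V338Y mice 2, 3, 4 and 5 on the log2 scale and 4.04, 4.47 and 4.83 in wild-type mice, and 5 of 14 were higher, with a median of 1.15. Without mouse 3 11 of 14 were higher and without mouse 5 8 were, while without mouse 4 5 were, with a median of 0.62, and V338Y mouse 3 was below wild-type mice 4 and 5. Retn, the adipocyte hormone resistin, was at 52.2, 18.9, 67.2 and 18.6 CPM against 11.3, 12.6 and 15.8 CPM, without overlap. At 3 mo the adipocyte median was -0.97, with 8 of 16 genes lower at an unadjusted p under 0.05. The part of these tissues in the values of other genes was not tested.

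Connective tissue and nerve lists had few members higher at an unadjusted p under 0.05, a line at which 6.17% of all genes were higher. The counts of the fibroblast, endothelial, smooth muscle, Schwann cell, neuromuscular junction and myogenic lists were near or below that share. They are not read as a difference of the genotypes. Collagens had 17 of 19 genes above 0, a median of 0.40 and 3 genes higher, Col15a1, Col1a1 and Col18a1. Col1a1, a chain of the main fibrillar collagen, was at 223, 148, 97.7 and 106 CPM in V338Y and at 89, 89.9 and 84.7 CPM in wild-type mice (log2 fold change 0.71 ± 0.27 SE, adjusted p = 0.541), without overlap. V338Y mouse 5 had the lowest collagen average of its group, and without it 12 of 19 were higher at an unadjusted p under 0.05, while without mouse 2 2 were, with a median of 0.21. Col15a1 had an adjusted p of 0.0447 with the replicate block and 0.537 without it. Matrix proteins and remodelling enzymes had 3 of 26 higher, a median of 0.24, without mouse 5 8 were higher, and without mouse 2 the median was 0.07 with 3 higher. Postn, periostin of healing tissue, was at 34.3, 7.53, 66.4 and 28.3 CPM against 4.78, 10.1 and 10.6 CPM, which overlap, with an adjusted p of 0.525 and of 0.0165 with the replicate block. Fibroblast genes had a median of 0.15 with 1 of 12 higher, which was Col1a1 again, endothelial genes 0.13 with 1 of 19, Apln, and smooth muscle and pericyte genes 0.03 with none. Schwann cell and nerve genes were all above 0, 13 of 13, with a median of 0.48 and 1 higher, Cnp, an enzyme of myelin (9.25 to 11.8 CPM against 6.98 to 8.29 CPM). Mouse 5 averaged 3.02 on the log2 scale, the other V338Y mice 2.10 to 2.33 and the wild-type mice 1.80 to 2.26, and without mouse 5 8 of 12 were above 0, with a median of 0.17. Denervation and neuromuscular junction genes had a median of 0.24 with 2 of 22 higher, Myog and Agrn, and the median was 0.07 with none higher without mouse 5, while 8 were higher without mouse 3 (median 0.34) and 7 with the replicate block. Among 17 myogenic and satellite cell genes only Myog, a regulator of fiber formation, was higher, at 12.5, 7.6, 9.23 and 19 CPM against 9.55, 5.81 and 5.3 CPM, which overlap.

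On the lower side, 15 genes were named by the smallest p among those without overlap between the genotypes. Eif3j1 alone passed the adjusted threshold, and it and Rplp0 have the copies described. Copies of the other genes of this side were not searched for. Vwa7, a protein with a von Willebrand factor A domain, was at 6.71, 6.38, 7.11 and 7.28 CPM in V338Y and at 11.7, 10.8 and 12.6 CPM in wild-type mice (log2 fold change -0.77 ± 0.12 SE, adjusted p = 0.192). The V338Y mice lay within 1 CPM of each other and all below the wild-type mice, and at 3 mo the log2 fold change was 0.18. Lmod1, a smooth muscle protein that starts actin filaments, was at 8.36, 11.3, 11.3 and 8.61 CPM against 14.9, 20.5 and 17.9 CPM (log2 fold change -0.84 ± 0.17 SE, adjusted p = 0.383), and at 3 mo its log2 fold change was 1.24. Pxmp2, a channel of the peroxisomal membrane, was at 13.7, 12.6, 8.89 and 10.8 CPM against 20.2, 17.4 and 21.5 CPM (log2 fold change -0.78 ± 0.16 SE, adjusted p = 0.395). Lmod1 and Pxmp2 were among the 13 genes lower with the replicate block, at adjusted p of 0.0268 and 0.0487.

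Nqo1, a quinone reductase driven by the stress factor NRF2, was at 17.3, 16.5, 20.7 and 18.1 CPM in V338Y and at 24.2, 31.8 and 26.8 CPM in wild-type mice (log2 fold change -0.61 ± 0.13 SE, adjusted p = 0.431). Tmem37, a subunit of voltage-gated calcium channels, was at 9.79 to 15.1 CPM against 17 to 29.8 CPM, Tpbgl, a membrane protein, at 9.24 to 14.8 CPM against 18 to 28.1 CPM, and Atp13a5, a P-type ATPase, at 3.15 to 5.38 CPM against 7 to 10.2 CPM. Cutc, a protein of copper homeostasis, was at 9.89 to 11.2 CPM against 14.1 to 14.8 CPM, and Pdcl3, a partner in protein folding, at 23.1 to 25 CPM against 30.7 to 34.7 CPM. In these 6 genes every V338Y mouse was below every wild-type mouse. The fitted log2 fold changes between the groups were negative, with sizes of 0.40 to 1.03, and are not the gaps between single mice.

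Of the 15 genes 5 lie on chromosome 2, Eif3j1, Pla2g4b, Chp1, Mfap1b and Jmjd7. That chromosome holds 1098 of the 13833 tested genes, and 0 of the 15 genes named on the upper side. Chp1, a calcium-binding partner of sodium-proton exchangers, was at 40.8, 42.8, 48.7 and 47.2 CPM in V338Y and at 59.4, 68.3 and 75.2 CPM in wild-type mice (log2 fold change -0.59 ± 0.12 SE, adjusted p = 0.395). Mfap1b, a spliceosome protein, was at 5.94 to 8.26 CPM against 10.3 to 11.4 CPM, and Pla2g4b and its neighbor Jmjd7, a hydroxylase, were at 0.333 to 1.21 and 0.11 to 0.86 CPM against 3.18 to 3.91 and 1.53 to 2.23 CPM. Pla2g4b is a phospholipase, was not in the list left aside and overlaps read-through transcripts of Jmjd7, so that reads of the pair may not be told apart. All 5 had log2 fold changes of the same sign at 3 mo, -1.24, -2.04, -0.75, -0.52 and -1.81, each at an unadjusted p of at most 0.00153. Of the 15 genes 9 had the same direction at 3 mo, 6 of them at an unadjusted p under 0.05, the sixth being Nqo1.

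Clock genes had the lowest medians of the 48 lists. The core clock is a loop in which CLOCK and ARNTL act through E-boxes on the genes of their own repressors, and its output factors pass the rhythm to metabolic genes. Of 13 core clock genes 12 were below 0, with a median log2 fold change of -0.38, and 3 were lower at an unadjusted p under 0.05, Nr1d2, Ciart and Cry2, against 2.75% of all genes, while in 2, Nr1d2 and Arntl, the genotypes did not overlap, against 4.33%. Of 8 clock output genes 7 were below 0, with a median of -0.33, 2 were lower, Bhlhe40 and Hlf, and 3 did not overlap. Nr1d2, a repressor of Arntl, was at 82, 90.7, 109 and 111 CPM in V338Y and at 114, 124 and 132 CPM in wild-type mice (log2 fold change -0.33 ± 0.14 SE, adjusted p = 0.544). Bhlhe40, a repressor that binds E-boxes, was at 48.4, 60.3, 55.9 and 48.9 CPM against 69.6, 76.2 and 69.3 CPM (log2 fold change -0.43 ± 0.11 SE, adjusted p = 0.511). Hlf, a factor of the PAR leucine zipper family, was at 4.29, 5.52, 5.89 and 4.06 CPM against 7.63, 7.24 and 6.54 CPM. Per1 and Per2 overlapped widely (19.4 to 53.5 and 2.58 to 10.4 CPM in V338Y, 32.4 to 84.1 and 5.04 to 12.4 CPM in wild-type mice). The labels give no time of day, and its part in these values was not tested. Without V338Y mouse 2, whose average over the list was the lowest, none of the core clock genes was lower at an unadjusted p under 0.05 and the median was -0.26, nor was any without mouse 3 (-0.30), while without mouse 4 6 were lower (-0.44) and with the replicate block 7 were, and 5 of the clock output genes. At 3 mo the medians were -0.11 and -0.09.

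The E-box, CACGTG, was found in the promoters of 3 of 11 core clock genes and 2 of 6 clock output genes with a promoter in the RefSeq table, against 8.09% of 27025 genes. That of Ciart, a repressor in the same loop, holds 3 of them in capitals, at chr3:95882179-95882478 (GRCm38.p6, minus strand). Ciart was at 0.66, 0.502, 1 and 0.42 CPM in V338Y and at 0.863, 1.11 and 1.68 CPM in wild-type mice (log2 fold change -0.94 ± 0.41 SE, adjusted p = 0.557), and V338Y mouse 4 lay above wild-type mouse 2.

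Ciart promoter: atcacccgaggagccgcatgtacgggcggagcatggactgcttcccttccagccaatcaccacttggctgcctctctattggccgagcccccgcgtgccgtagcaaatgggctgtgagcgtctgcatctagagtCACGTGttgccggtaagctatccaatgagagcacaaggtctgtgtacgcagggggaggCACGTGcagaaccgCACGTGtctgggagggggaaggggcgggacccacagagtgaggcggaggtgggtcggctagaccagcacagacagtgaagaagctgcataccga

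**Figure D4:**
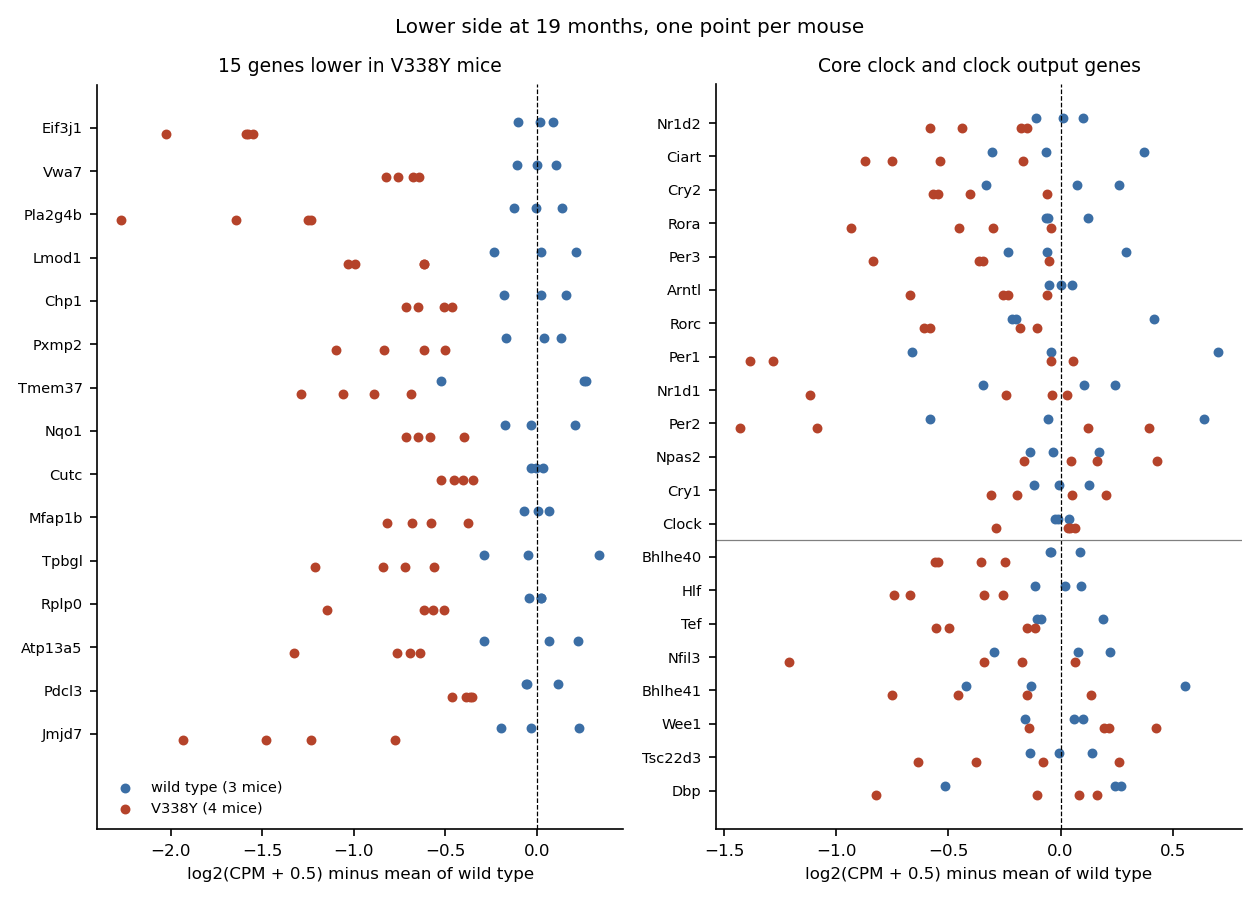
Level of the 15 named genes of the lower side (left) and of the core clock and clock output genes (right, above and below the line) at 19 mo, as log2(CPM + 0.5) minus the mean of wild type, with a point for each of 3 wild-type (blue) and 4 V338Y (red) mice. On the left no red point reaches a blue one, as the rule for these genes requires, and on the right the groups overlap in most genes.

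Genes of protein synthesis and breakdown had log2 fold changes mostly below 0, by small amounts. Of 79 cytosolic ribosomal protein genes 72 were below 0, with a median of -0.12, and 4 were lower at an unadjusted p under 0.05, Rplp0, Rpl24 and Rpl23 among them. Rpl24 was at 67 to 74.9 CPM in V338Y and 76.4 to 94.5 CPM in wild-type mice, and Rpl23 at 128 to 152 CPM against 153 to 191 CPM. The share of 4 in 79 was not far from the 2.75% of all genes, and 1 to 5 were lower when a V338Y mouse was left out. Of 62 translation factor genes 47 were below 0, with a median of -0.10, 3 lower and 1 higher, the latter being Eif3j2. Eif1, which guards start codon choice, was at 144 to 184 CPM against 199 to 211 CPM, and Eif4b, a helper of the cap-binding helicase, at 175 to 264 CPM against 266 to 290 CPM.

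Of 47 proteasome genes 35 were below 0, with a median of -0.13, and 5 were lower at an unadjusted p under 0.05, all of the standard particle, Psmd8, Psmd7, Psmb3, Psmd12 and Psma3, in each of which the genotypes did not overlap. Psmd8, a lid subunit of the regulatory cap, was at 76.7, 77.3, 98.6 and 95.4 CPM in V338Y and at 115, 121 and 115 CPM in wild-type mice (log2 fold change -0.43 ± 0.12 SE, adjusted p = 0.525). Psmd7, another lid subunit, was at 60.2, 69.6, 69.2 and 61.9 CPM against 80.7, 86.4 and 80.9 CPM. The 2 that were higher, Psmb9 and Psmb10, are subunits of the immunoproteasome, which interferon induces, and are members of the MHC class I list too. Psmb9 was at 6.05, 2.44, 3.78 and 4.27 CPM against 2.79, 2.39 and 1.68 CPM. None of these passed the adjusted threshold.

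Of 16 genes of glycogen and glucose entry 12 were below 0, with a median of -0.21, 2 were lower and 3 did not overlap. With the replicate block 9 were lower, against 7.5% of all genes, and without single V338Y mice 1 to 4 were. Ppp1r3c and Ppp1r3a target protein phosphatase 1 to glycogen, where it activates synthesis. Ppp1r3c was at 285, 439, 562 and 405 CPM in V338Y and at 643, 608 and 758 CPM in wild-type mice (log2 fold change -0.66 ± 0.22 SE, adjusted p = 0.534). Ppp1r3a was at 724, 1030, 911 and 678 CPM against 1230, 1180 and 1080 CPM (log2 fold change -0.48 ± 0.18 SE, adjusted p = 0.537). Gyg, the primer of glycogen, was at 177 to 259 CPM against 284 to 293 CPM. Atrophy genes had a median of -0.18 with 15 of 18 below 0 and none past an unadjusted p under 0.05, and Fbxo32, the ubiquitin ligase atrogin-1, was at 364, 301, 1530 and 940 CPM against 908, 1320 and 1660 CPM.

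Transcripts of the muscle fibers themselves had log2 fold changes mostly below 0, and few passed a test. Of 14 skeletal muscle genes 13 were below 0, with a median of -0.26, and 1 was lower at an unadjusted p under 0.05, Dmd, dystrophin of the fiber membrane, at 660, 907, 925 and 828 CPM in V338Y and at 1140, 1080 and 1130 CPM in wild-type mice (log2 fold change -0.42 ± 0.16 SE, adjusted p = 0.537). Of 16 fast fiber genes 14 were below 0, with a median of -0.31 and none past an unadjusted p under 0.05, while with the replicate block 13 were lower at that line, against 7.5% of all genes, and none at an adjusted p under 0.05. Slow fiber genes varied more between mice than between genotypes. Myh7, the slow myosin heavy chain, reached 1320 CPM in V338Y mouse 5 and was at 0.645 CPM in mouse 3. Averaged over 16 slow fiber genes, the log2 level was 3.70, 2.02, 3.32 and 7.07 in V338Y mice 2, 3, 4 and 5 and 2.60, 4.56 and 5.85 in wild-type mice 2, 4 and 5. The median of their log2 fold changes was 0.58, with 14 of 16 above 0, although the V338Y mean of that average was lower by 0.309 on the log2 scale. Without mouse 5 the median was -1.99, and 7 of the 16 were lower at an unadjusted p under 0.05. Fatty acid oxidation genes followed the same mice, with averages of 7.33 and 7.12 in V338Y mouse 5 and wild-type mouse 5 and 6.12 to 6.59 in the others, and none of 21 passed an unadjusted p under 0.05 (median 0.08).

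Medians of the mitochondrial lists were near 0. Of 76 mitochondrial ribosomal protein genes, the partners of MRPS5, 1 was lower, Mrps10 (13.1 to 16.1 CPM against 16.3 to 18.3 CPM), with a median of -0.06. The 9 tested mitochondrially encoded genes had a median of 0.03 with none past an unadjusted p under 0.05. That median changed sign in 5 of 16 alternative settings. Summed, these genes were at 21900, 24800, 12900 and 33300 CPM in V338Y mice 2, 3, 4 and 5 and at 20800, 18900 and 28900 CPM in wild-type mice. The listed mt-Co2, mt-Co3, mt-Atp6 and mt-Atp8 were at most at 0.55 CPM in any mouse and were not tested, so these values do not describe them. The 81 nuclear respiratory chain genes had a median of 0.0038 with 2 higher, Cox6a1 (9.46 to 18.7 CPM against 7.76 to 10.4 CPM, adjusted p = 0.537, and 0.0487 with the replicate block) and Cox8a (12.9 to 24.1 CPM against 11.7 to 12.3 CPM). Both belong to complex IV, and Cox6a1 and Cox8a are the forms that tissues other than muscle use, while the muscle form Cox6a2 was at 227 to 324 CPM against 307 to 356 CPM. In the TCA cycle list 1 of 22 genes was higher, which was Pcx, with a median of 0.05. Among 17 mitochondrial chaperones and proteases none passed an unadjusted p under 0.05 (median -0.0054). Of 16 genes of the mitochondrial stress response 1 was higher, Psat1, an enzyme of serine synthesis (3.63, 2.51, 4.56 and 4.69 CPM against 1.59, 1.99 and 2.3 CPM), and 1 lower, Atf4, the transcription factor of that response (87.9, 93.1, 89.8 and 98.7 CPM against 107, 114 and 121 CPM), with a median of 0.06. In both the genotypes did not overlap, and neither passed the adjusted threshold (0.525 and 0.534).

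In other stress lists, 4 of 19 endoplasmic reticulum chaperones were higher, Manf, Edem1, Pdia4 and Pdia3, against 6.17% of all genes, with a median of 0.06. The genotypes did not overlap in 5 of the 19 that were higher and in 1 that was lower, against 5.07% and 4.33% of all genes. Manf, a secreted protein of the unfolded protein response, was at 16.2, 16.4, 11.8 and 19.1 CPM in V338Y and at 10.9, 11.1 and 9.28 CPM in wild-type mice (log2 fold change 0.61 ± 0.17 SE, adjusted p = 0.511). Without mouse 5 2 of the 19 were higher. In the antioxidant list Gpx1, glutathione peroxidase, was higher at 42, 34.3, 48.2 and 51.8 CPM against 30.2, 29.1 and 28.1 CPM (log2 fold change 0.60 ± 0.15 SE, adjusted p = 0.488), and Nqo1 was lower, with a median over 23 genes of -0.02 and a mean difference in log2(CPM + 0.5) of 0.03. Heat shock genes had 1 of 20 higher, Hspa4l (median 0.05), autophagy and lysosome genes 1 higher, Lgmn, and 1 lower, Gabarapl2 (median -0.01, mean difference 0.0063), senescence and p53 genes 1 of 16 lower, Gadd45b (median 0.00080, mean difference -0.053), immediate early genes 1 of 21 higher, Egr2 (median 0.06, mean difference -0.04), and glucocorticoid response genes 1 of 16 higher, Lcn2 (median -0.12), which is also a neutrophil granule gene and was at 34.2 CPM in V338Y mouse 5 and 0.531 to 3.22 CPM elsewhere. In signalling lists, Igfbp7 was higher (41.5 to 54.2 CPM against 31.6 to 39.3 CPM) and Igf2 lower (7.56 to 11.2 CPM against 10.9 to 17.3 CPM) among 22 IGF and insulin genes (median -0.03), and Tgfb1 higher (4.8 to 6.58 CPM against 2.99 to 4.6 CPM) and Tgfb3 lower (36.2 to 42.9 CPM against 42.4 to 51.6 CPM) among 24 TGF-beta and myostatin genes (median -0.07).

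The V338Y mice varied more among themselves than the wild-type mice. The median SD of a gene over mice, on the log2 scale, was 0.233 in 4 V338Y and 0.185 in 3 wild-type mice, and 8928 of 13833 genes (64.5%) had the larger SD in V338Y mice. Without V338Y mouse 5 the median SD was 0.205 and the share 55.5%. Leaving out V338Y mouse 2, 3 or 4 instead, which also makes the groups equal in size, gave shares of 61, 60.4 and 62.1%. V338Y mice 2 and 4 had the lowest total counts, and the part of depth in this spread was not tested. Each mouse had its own set of genes that lay more than 1 log2 unit outside all other 6 mice, among 12244 named genes with a mean of at least 1 CPM. V338Y mouse 5 had 141 above and 26 below, V338Y mouse 4 29 and 2, V338Y mouse 2 18 and 6, V338Y mouse 3 3 and 11, and the wild-type mice at most 6 above and 11 below. The genes farthest out in mouse 5 were Mpo, S100a8, Chil3, Ltf, Slc4a1 and S100a9, of neutrophils, macrophages and red cells. In mouse 2 they were lipid synthesis genes and, apart from these, Iigp1, an interferon-induced GTPase (69.5 CPM against at most 14.1 CPM), Oxtr, the oxytocin receptor (19.5 against at most 4.56 CPM), and Slc15a2, a peptide carrier (1.76 CPM against at least 9.95 CPM). In mouse 4 they included Fcgbp, a mucus protein (38.8 against at most 7.48 CPM, adjusted p = 0.537, and 0.00653 with the replicate block), Nnat, an imprinted proteolipid (35.3 against at most 10.2 CPM), and Ms4a1. In mouse 3 they were slow fiber genes on the low side, Myh7, Tnnt1, Tnnc1, Myl2 and Sln, and Foxo6 on the high side (5.09 against at most 1.19 CPM). In wild-type mouse 2 slow fiber and liver-type plasma genes were lowest, such as Ankrd2 (1.06 against at least 4 CPM), Alb and Mup10 (1.53 against at least 8.19 CPM).

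**Figure D5:**
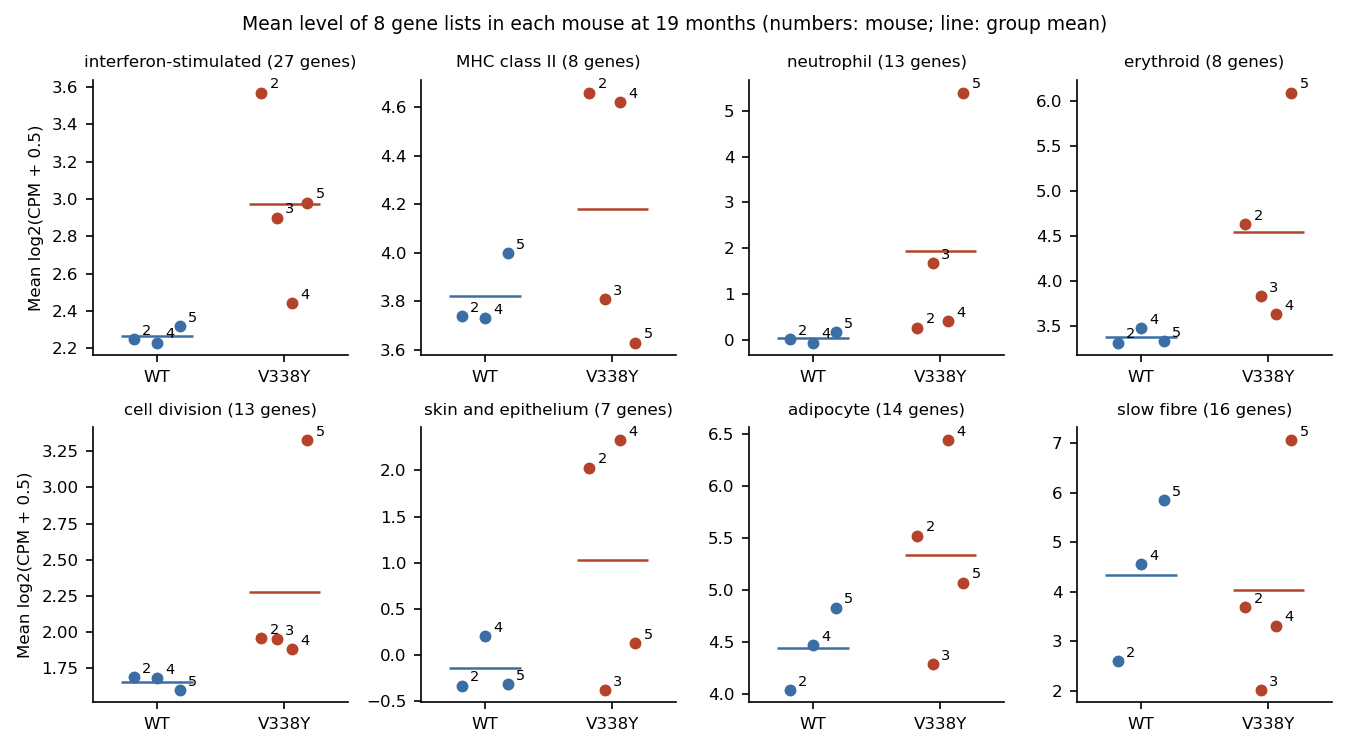
Mean log2(CPM + 0.5) over the tested genes of 8 lists at 19 mo, for each of 3 wild-type (blue) and 4 V338Y (red) mice, with the mouse number beside each point and a line at the group mean. Interferon-stimulated genes lie above wild type in all 4 V338Y mice, neutrophil and cell division genes are led by mouse 5, skin and epithelium genes by mice 2 and 4, and slow fiber genes spread over both genotypes.

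Set beside the younger mice, genes past an unadjusted p under 0.05 at 19 mo kept their sign at 3 mo about as often as all genes. Of the genes called at 19 mo, Eif3j1, Eif3j2 and Gm14085 were also called at 3 mo, in the same direction. By Xist and Ddx3y the ages differ in sex too. What follows, the interaction included, therefore cannot separate age from sex. Of 13038 genes tested at both ages, 731 were higher at 19 mo at an unadjusted p under 0.05, and 341 of them (46.6%) had a log2 fold change above 0 at 3 mo, as did 49.6% of all genes. Of 372 that were lower, 202 (54.3%) were below 0 at 3 mo, as were 50.4% of all genes. In the interaction of age and genotype over all 15 mice 0 of 14128 genes passed an adjusted p under 0.05 (edgeR), while at an unadjusted p under 0.05 715 were higher and 646 lower and 26 passed the adjusted threshold with DESeq2. The genes with the smallest interaction p included Gm9625, Vwa7 and Rbp4, each at an adjusted p of 0.192.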

How the data were processed

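Quadriceps RNA of 15 C57BL/6 mice was prepared with TRIzol and a stranded mRNA kit and sequenced by the study. The deposited values are expected counts per gene, which the authors estimated with RSEM after alignment with STAR 2.4.2a, dividing reads that fit several genes between them, and which the files hold as whole numbers. The submitters' notes name GRCm38. Positions, names (37607 of 39179 identifiers) and transcripts are those of GENCODE M21, and promoters those of RefSeq, both on GRCm38.

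Counts were fitted with edgeR 4.0.16 (R 4.3.3, limma 3.58.1), TMM normalization and the quasi-likelihood test over all genes with 10 counts in 50% of the mice of a genotype, separately at each age, with Benjamini-Hochberg adjustment. The script was tested on simulated data. Named genes were those called, the 15 of smallest p on each side (symbols other than predicted genes, mean of at least 1 CPM, no overlap), up to 4 per list, 6 near Mrps5 and 6 per mouse. Other genes named to define a list, or added from the files, were chosen after their values were seen. The comparison and the 48 lists were chosen with earlier results of these data known. Replicates are separate mice. A few list members are counted in their lists but not reported here by name.

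Deviations from the group means correlated positively in same-numbered mice at 19 mo (0.138, 0.263 and 0.42), so a replicate block was fitted beside the main fit. For different numbers the correlations were -0.436 to 0.508, the highest being that of V338Y mouse 3 with wild-type mouse 2. Alternatives were RLE and upper-quartile scaling, other filters, the likelihood ratio test, DESeq2 1.42.0, all 15 mice in 1 fit, the 10 most counted genes left out and each mouse left out.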

Additional observations from a re-analysis of the deposited data

Results flagged for a closer look

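Among the 4 V338Y mice at 19 mo, 93 quantities were screened for a mouse far from the other 3 by Dixon's test, which chance passes in about 1 of 20 groups, and 5 passed. The mean log2(CPM + 0.5) of the cell division list was 3.33 in V338Y mouse 5 and 1.88 to 1.96 in the others. The log2(CPM + 0.5) of Rplp0 was 7.25 in mouse 5 and 7.79 to 7.89 in the others. That of Eif3j1 was 4.11 in mouse 2 against 4.54 to 4.58, and that of Eif3j1 and Eif3j2 summed was 5.21 in mouse 2 against 5.55 to 5.6. That of Mrps5 was 4.09 in mouse 4 against 4.33 to 4.37. The wild-type group of 3 mice was not screened.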

How the results depend on the processing

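The number of genes at an adjusted p under 0.05 depended on the test. At 19 mo the 6 calls became 62 with DESeq2, 72 with the likelihood ratio test, 14 without a filter on low counts, 110 with the replicate block and 2 to 7 when a mouse was left out. At 3 mo the 10 calls became 66, 83 and 33 in the first 3 of these settings and 3 to 14 when a mouse was left out. The interaction's 0 calls became 26 with DESeq2, 36 with the likelihood ratio test, 5 without a filter and 117 with the replicate block. At an unadjusted p under 0.05, the 854 higher genes became 1545 with the replicate block and 510 to 1170 when a mouse was left out, and the 381 lower genes 225 with the likelihood ratio test, 1038 with the replicate block, 191 to 555 when a mouse was left out and 1027 in the fit of all 15 mice, where 995 were higher. The cause was not tested. Gm8730 and Gm9625 lost their calls in the fit of all 15 mice (adjusted p = 0.155 and 0.117). Of 217 named genes, none that was called changed sign under any alternative, and 10 that were not called did. Of the 48 list medians 16 changed sign under at least 1 alternative.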
